A study of Saccharomyces cerevisiae with 12 samples.

Results

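The outermost stretches of budding yeast chromosomes hold many open reading frames (ORFs) that have no standard gene name. Of the 7127 features in the count table of this series, 200 were such ORFs: nuclear, with no standard gene name in RefSeq, not part of a Ty retrotransposon, and less than 30 kb from a chromosome end. The distance is the shorter of the ORF's start coordinate and the bases between its end and the last annotated base of its chromosome in the table. For comparison there were 909 unnamed ORFs more than 100 kb from an end, 210 between those limits, and 284 ORFs with a standard name within 30 kb. No measured value entered the rule. ORFs that RefSeq does not list were taken as unnamed, so some may carry a standard name elsewhere, and RefSeq gives 4 of the 200 a gene name as a synonym (NFT1, FDH2, HXT12 and BUL3).

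The libraries came from Saccharomyces cerevisiae strain BY4741, an S288C-derived laboratory strain of mating type a. Total RNA was extracted with acid phenol from cells at mid-log phase, grown in YPD (the glucose groups) or in sucrose, and libraries were made with an HTP KAPA kit. The genotypes are WT and Rpd3_2SA (here 2SA), and the labels neither spell out the 2SA change nor say how that strain was made. There were 4 groups with 3 biological replicates each: WT in glucose, 2SA in glucose, WT in sucrose and 2SA in sucrose. The title names the question: the effect of phosphorylation of Rpd3, a histone deacetylase, on expression in either sugar.

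In budding yeast, genes placed next to telomeres can be silenced by the Sir proteins, a complex with the histone deacetylase Sir2 that spreads inward over deacetylated histones. Chromosome ends carry X elements, and many carry Y′ elements, which are repeated and encode helicases. Loss of RPD3 is known in yeast to strengthen silencing near telomeres, although deacetylases usually repress genes.

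The 200 ORFs lay at all 32 chromosome ends, with 1 to 14 at an end and the most at the right end of chromosome VIII. They were 51 to 5277 bases long, with a median of 447. RefSeq lists 116 of them, and the other 84 were not found there. RefSeq names a helicase for 14, here called the Y′ helicase ORFs. They are not the whole Y′ part of the 200. YML133W-A, for example, is not in RefSeq and lies within the Y′ helicase ORF YML133C. YLR463C is not in RefSeq either, and its longest match elsewhere falls on the Y′ helicase ORF YIL177C. Near copies, meaning matches elsewhere in the genome over 100 bp or more with an identity of 80% or higher, were found for 136 of the 200 (68.0%) and for 63 of the 909 distant unnamed ORFs (6.93%). Another feature overlapped 76 of the 200. The strand setting of the counting, and what it did with reads of several matches, was not given in the sources used here, so values of ORFs with near copies or overlaps are uncertain.

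The promoters of 6 of these ORFs are printed first, chosen among those with large or well resolved changes described below. Others with a change of similar size, such as YEL073C, are not printed. Each window runs from 250 bases before the annotated start to 50 bases past it, on the coding strand, read from the RefSeq genome, which has the coordinates of sacCer3. The windows are chrIV:1520649-1520948 (minus strand) for YDR541C, chrIX:435934-436233 (minus) for YIR042C, chrXV:14063-14362 (plus) for YOL160W, chrXV:9347-9646 (plus) for YOL163W, chrIX:19265-19564 (plus) for YIL171W and chrXIII:9948-10247 (plus) for YML131W. Capitals mark the motif matches listed after the sequences.

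YDR541C: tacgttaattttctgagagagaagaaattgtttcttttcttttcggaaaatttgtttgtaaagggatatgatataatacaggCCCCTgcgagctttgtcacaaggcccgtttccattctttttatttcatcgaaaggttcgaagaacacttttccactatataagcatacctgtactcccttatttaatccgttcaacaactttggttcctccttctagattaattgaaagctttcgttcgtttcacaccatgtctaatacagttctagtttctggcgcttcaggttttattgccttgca

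YIR042C: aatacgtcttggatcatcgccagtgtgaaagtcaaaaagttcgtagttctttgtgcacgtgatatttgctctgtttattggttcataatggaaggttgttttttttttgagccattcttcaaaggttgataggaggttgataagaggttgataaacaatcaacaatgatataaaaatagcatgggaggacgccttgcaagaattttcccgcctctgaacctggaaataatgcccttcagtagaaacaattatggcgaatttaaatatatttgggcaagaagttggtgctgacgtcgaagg

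YOL160W: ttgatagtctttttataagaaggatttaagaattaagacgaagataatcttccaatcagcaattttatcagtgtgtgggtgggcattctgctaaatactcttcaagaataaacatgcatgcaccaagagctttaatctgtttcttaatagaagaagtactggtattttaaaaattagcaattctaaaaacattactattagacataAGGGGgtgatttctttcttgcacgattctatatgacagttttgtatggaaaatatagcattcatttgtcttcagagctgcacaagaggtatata

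YOL163W: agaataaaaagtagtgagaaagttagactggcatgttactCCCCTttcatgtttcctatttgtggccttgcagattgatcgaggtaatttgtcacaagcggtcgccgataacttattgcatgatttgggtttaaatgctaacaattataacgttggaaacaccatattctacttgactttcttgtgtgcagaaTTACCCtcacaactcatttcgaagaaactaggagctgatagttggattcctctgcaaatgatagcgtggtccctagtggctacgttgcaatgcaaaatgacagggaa

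YIL171W: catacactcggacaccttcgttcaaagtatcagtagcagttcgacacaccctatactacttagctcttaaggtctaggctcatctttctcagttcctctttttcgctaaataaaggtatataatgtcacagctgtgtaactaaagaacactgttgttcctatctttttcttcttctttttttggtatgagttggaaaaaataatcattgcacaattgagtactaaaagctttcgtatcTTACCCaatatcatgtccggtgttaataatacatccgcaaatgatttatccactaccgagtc

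YML131W: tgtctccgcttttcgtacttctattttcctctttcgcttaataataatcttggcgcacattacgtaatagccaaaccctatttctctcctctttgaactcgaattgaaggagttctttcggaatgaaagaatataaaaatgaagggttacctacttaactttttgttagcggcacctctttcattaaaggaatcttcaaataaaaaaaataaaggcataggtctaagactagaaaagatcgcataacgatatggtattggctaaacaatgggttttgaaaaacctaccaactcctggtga

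Both strands were searched for 4 motifs: GCCGCC, the core of URS1, which Ume6 binds to recruit Rpd3; AGGGG, the stress response element read by Msn2 and Msn4; TTAGGG, bound by the telomere-associated factor Tbf1; and TTACCC, the core bound by Reb1. The motifs do not contain one another, and overlapping matches were counted. A stress response element stood 168 bases before the start of YDR541C, 44 before YOL160W and 210 before YOL163W. A Reb1 core stood 57 bases before YOL163W and 12 before YIL171W. None of the 4 motifs occurred in the windows of YIR042C and YML131W. Over windows of the same length, GCCGCC was found in 7.54% of 199 ORFs near ends, 6.27% of the distant unnamed ORFs and 5.25% of all 6567 nuclear ORFs. AGGGG was found in 18.6%, 24.6% and 21.6% of the same sets, TTAGGG in 3.52%, 5.39% and 6.7%, and TTACCC in 23.6%, 11.2% and 15.7%. These shares describe letters in a window and do not show binding.

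Most of the ORFs near ends gave few reads. Levels are given as CPM, counts scaled to library size, and, to compare ORFs, as CPM per kb of length. All 12 libraries had 0 counts for 38 of the 200 (19.0%), against 100 of the 909 distant unnamed ORFs. All 38 have near copies: the 64 ORFs near ends without a near copy all had reads, with a median of 6.39 CPM per kb. Over all libraries the median level was 0.808 CPM per kb, against 2.92 for the distant unnamed ORFs and 15.04 for named ORFs within 30 kb. Levels above 10 CPM per kb were seen for 42 ORFs near ends (21.0%) and for 332 distant ones (36.5%). A library held reads from 129 to 141 of the 200 ORFs, and together they made up 0.104% to 0.209% of its counts. YFR057W, an ORF that RefSeq notes as silenced by Sir2, had 1 count in total. A count of 0 in a library allows up to 0.112 to 0.146 CPM, the size of 3 counts, with counting error only.

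**Figure D1:**
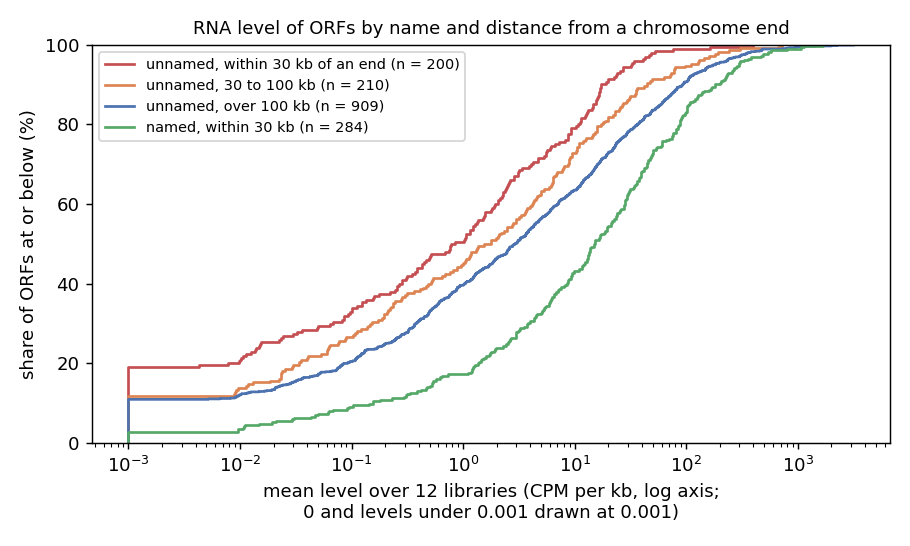
Share of ORFs at or below a given mean level over the 12 libraries, in CPM per kb on a log axis, for the unnamed ORFs in 3 ranges of distance from a chromosome end and the named ORFs within 30 kb. The curve of the 200 unnamed ORFs near ends lies to the left, with a median of 0.808 CPM per kb against 2.92 for the 909 ORFs more than 100 kb away.

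A few ORFs near ends were expressed well. YMR315W, which encodes an NADP(H) oxidoreductase, was the highest at 399 CPM per kb and alone supplied 22.3% to 33.0% of the reads of the 200. It was followed by YOR385W (164 CPM per kb), YCR095W-A (75.4), YML131W (52.7), YER186C (48.0), YMR317W (46.1, overlapping YMR316C-B), YEL068C (42.6) and YNR075C-A (41.0). These are means over all 12 libraries on the per-length scale. YMR315W had 377, 286 and 340 CPM in WT and 378, 260 and 345 in 2SA in glucose. In sucrose it had 681, 426 and 484 CPM in WT and 580, 380 and 488 in 2SA. The genotypes overlapped in both sugars, and its log2 fold change in 2SA was −0.08 ± 0.17 (SE) for the mean of both carbon sources (edgeR adjusted p = 0.998). YOR385W varied widely within groups, from 34.1 to 229 CPM among the 2SA libraries in glucose, and its groups overlapped in every comparison. Of the 8, YNR075C-A alone was called in 2SA and YML131W alone between the sugars.

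**Figure D2:**
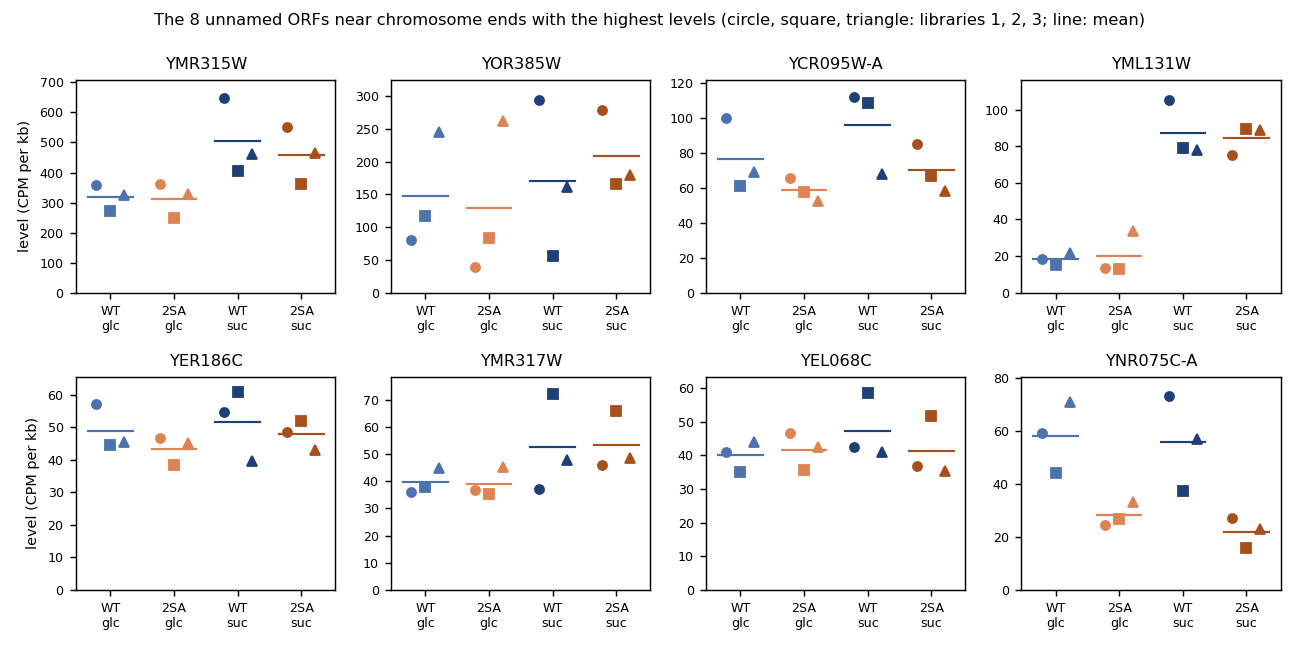
Level per library in CPM per kb for the 8 unnamed ORFs near ends with the highest mean level, by genotype and carbon source, with circles, squares and triangles for libraries 1, 2 and 3 and a line at each group mean. YML131W is higher in sucrose than in glucose in both genotypes, and YNR075C-A is lower in 2SA than in WT without overlap in both sugars.

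Some libraries stood apart. The library totals ran from 20775911 to 25360037 counts. In both WT libraries numbered 1, 16 of the 101 ORFs near ends with enough reads to test (15.8%) stood more than 1.5-fold above both other WT libraries of the same sugar, against 142 of 6085 features (2.33%). For WT libraries 2 and 3 that number was 0 and 1. The receptor gene STE3, normally made only by alpha cells, had 3.32 and 4.67 CPM in the WT libraries numbered 1 in glucose and sucrose, and at most 0.241 CPM in the other 10 libraries. The summed level of the 3 alpha-specific markers ran from 4.38 to 8.63 CPM in WT and 4.16 to 7.06 in 2SA in glucose, and from 3.74 to 9.12 and 4.04 to 5.98 in sucrose, and none was at 0 in all libraries. The 4 a-specific markers summed to 420 to 440 CPM in WT and 269 to 406 in 2SA in glucose, and to 177 to 384 and 153 to 199 in sucrose. URA3, absent from BY4741 by its genotype, had 233 to 521 CPM, and HIS3, of which BY4741 carries a partial deletion, had 29.8 to 69.1 CPM, while LEU2 had 1 count and MET17 had 0. The share of ribosomal protein genes was 3.86% and 5.57% in the sucrose libraries numbered 2 and 9.28% to 12.7% in the other sucrose libraries. The part of these differences in the results below was not tested. Values without the WT libraries numbered 1, or without all libraries numbered 1, are given for several of the ORFs whose call or value depends on them.

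Enough reads to test were present for 101 of the 200 ORFs near ends. The filter on low counts left out the other 99, of which 61 had some reads, and an ORF that is silent in one genotype can pass through the other. An ORF was called where edgeR's adjusted p over all 6085 tested features was under 0.05 and the fold change over 1.5. With all 12 libraries, every call in 2SA against WT was a decrease, with and without the block described below. In glucose 1 ORF was called lower and 0 higher, against 0.0493% of all tested features lower and 0.0329% higher. In sucrose 0 were called, with 0.0493% of all features lower and 0.0164% higher. In sucrose 17 were lower and 0 higher at an unadjusted p under 0.05, and DESeq2 called 6 lower. Both counts stand without the share over all features, so whether they exceed it is not shown. For the mean of both carbon sources, 7 of the 101 were called lower and 0 higher, against 0.526% and 0.0986% of all features. None of the 549 tested unnamed ORFs more than 100 kb away was called in any of the 3 comparisons in this fit, where 20 were lower and 6 higher at an unadjusted p under 0.05 for the mean of both sugars. The 3 comparisons share their libraries and are not independent. Of the 7 ORFs, 6 were among the 53 tested without near copies and 1 among the 48 with them.

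WT and 2SA libraries with the same number deviated together within each sugar, so each such pair was also fitted as a block. With the block, 4 of the 101 were lower in glucose, 8 in sucrose and 15 for the mean of both sugars, against 0.362%, 1.61% and 2.22% of all features. None was higher in any of the 3, against 0.115%, 0.23% and 0.279%. Of the distant unnamed ORFs, 9 of 549 were lower and 1 was higher in that fit for the mean of both sugars. Among named ORFs within 30 kb, 20 of 251 were lower without the block and 55 with it, and 0 were higher.

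YDR541C, which encodes an NADPH-dependent carbonyl reductase, lies 11013 bases from the right end of chromosome IV, has no near copy and overlaps no feature. Its level was 19.7, 8.37 and 17.1 CPM in WT and 5.08, 3.09 and 3.10 CPM in 2SA in glucose. In sucrose it was 18.7, 8.001 and 13.1 CPM in WT and 5.17, 3.18 and 2.77 CPM in 2SA. Every 2SA library was below every WT library, and the libraries numbered 2 were low among the WT. Its log2 fold change was −1.92 ± 0.29 (SE; edgeR adjusted p = 0.0173) for the mean of both sugars and −1.88 ± 0.16 with the block (adjusted p = 0.000413). It was the only ORF of the 101 that was called in each sugar with the block when the libraries numbered 2 were left out. With the block and without the libraries numbered 3, no ORF of the 101, YDR541C included, was called in glucose. Without both WT libraries numbered 1 it was at −1.63 ± 0.29 without the block and no longer called (edgeR adjusted p = 0.0554).

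YIR042C (chromosome IX, 435273 to 435983, minus strand) is the last feature of its arm in the count table. It lies 3905 bases from the end of the reference sequence. Its level was 38.0, 7.44 and 10.3 CPM in WT and 4.18, 3.13 and 2.87 CPM in 2SA in glucose. In sucrose it was 35.9, 12.4 and 11.5 CPM in WT and 5.88, 4.57 and 3.50 CPM in 2SA. The WT libraries numbered 1 stood far above the other WT libraries, and all WT libraries were above all 2SA libraries. Its log2 fold change for the mean of both sugars was −2.28 ± 0.44 (edgeR adjusted p = 0.0495) and −2.05 ± 0.25 with the block (adjusted p = 0.00267). Without both WT libraries numbered 1 it was −1.37 ± 0.19 (edgeR adjusted p = 0.0183).

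YIL171W, which RefSeq also lists as HXT12, a name of the hexose transporter family, has 3 near copies and varied little between replicates. Whether it encodes a working transporter was not tested. Its level was 12.2, 13.4 and 12.8 CPM in WT and 5.12, 4.82 and 6.37 CPM in 2SA in glucose. In sucrose it was 11.7, 12.1 and 11.1 CPM in WT and 6.96, 5.09 and 6.08 CPM in 2SA. The genotypes did not overlap in either sugar and the WT libraries numbered 1 did not stand out. It was the single ORF near an end called in glucose without a block, at −1.23 ± 0.17 (edgeR adjusted p = 0.0244), and that call was lost on leaving out any of 7 libraries: the 3 of WT in glucose, the 3 of 2SA in glucose or the 2SA library numbered 3 in sucrose. For the mean of both sugars it was at −1.09 ± 0.12 (edgeR adjusted p = 0.00275), a call kept when any one library was left out.

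Several of the called ORFs stood together on the left arm of chromosome XV, where 4 were lower in 2SA with the block. YOL163W, known as a relative of the allantoate permease Dal5, had 7.45, 2.63 and 3.48 CPM in WT and 0.712, 0.576 and 0.910 CPM in 2SA in glucose. In sucrose it had 15.2, 1.69 and 2.90 CPM in WT and 0.595, 0.524 and 0.972 CPM in 2SA. All WT libraries were above all 2SA libraries, and the WT libraries numbered 1 were the highest in both sugars. Its log2 fold change for the mean of both sugars was −2.94 ± 0.55 (edgeR adjusted p = 0.0418) and −2.66 ± 0.40 with the block (adjusted p = 0.00858). Without both WT libraries numbered 1 it was −1.89 ± 0.26 (edgeR adjusted p = 0.0174).

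YOL160W (chromosome XV, 14313 to 14654, plus strand) encodes a protein that RefSeq lists as uncharacterized. Its level was 1.41, 0.924 and 0.937 CPM in WT and 0.0949, 0.206 and 0.0910 CPM in 2SA in glucose. In sucrose it was 1.57, 0.362 and 0.498 CPM in WT and 0.186, 0.0748 and 0.0972 CPM in 2SA. The 2SA libraries lay near the level of 3 counts in every case, and none reached a WT library. The log2 fold change for the mean of both sugars was −2.84 ± 0.45 (edgeR adjusted p = 0.0177) and −2.83 ± 0.31 with the block (adjusted p = 0.00163). Without both WT libraries numbered 1, YOL160W was at −2.27 ± 0.34 (edgeR adjusted p = 0.0231).

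Farther out and farther in on the same arm, YOL164W-A had 0.535 to 3.04 CPM in the 6 WT libraries and 0.273 to 0.636 CPM in the 6 of 2SA. YOL159C-A had 3.50 to 7.27 CPM in WT and 2.55 to 3.48 CPM in 2SA, and was lower in 2SA without overlap in both sugars. With the block they were at −1.51 ± 0.29 and −0.81 ± 0.13 (edgeR adjusted p = 0.0190 and 0.0112), and without the block neither was called. Without both WT libraries numbered 1 and without the block, YOL164W-A moved from −1.63 ± 0.46 to −0.79 ± 0.27. With the block and without all libraries numbered 1 it was at −0.98 ± 0.30 and no longer called (edgeR adjusted p = 0.110). The named ORF BDS1, which lies between YOL164W-A and YOL163W, and ENB1, farther in, were not called.

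**Figure D3:**
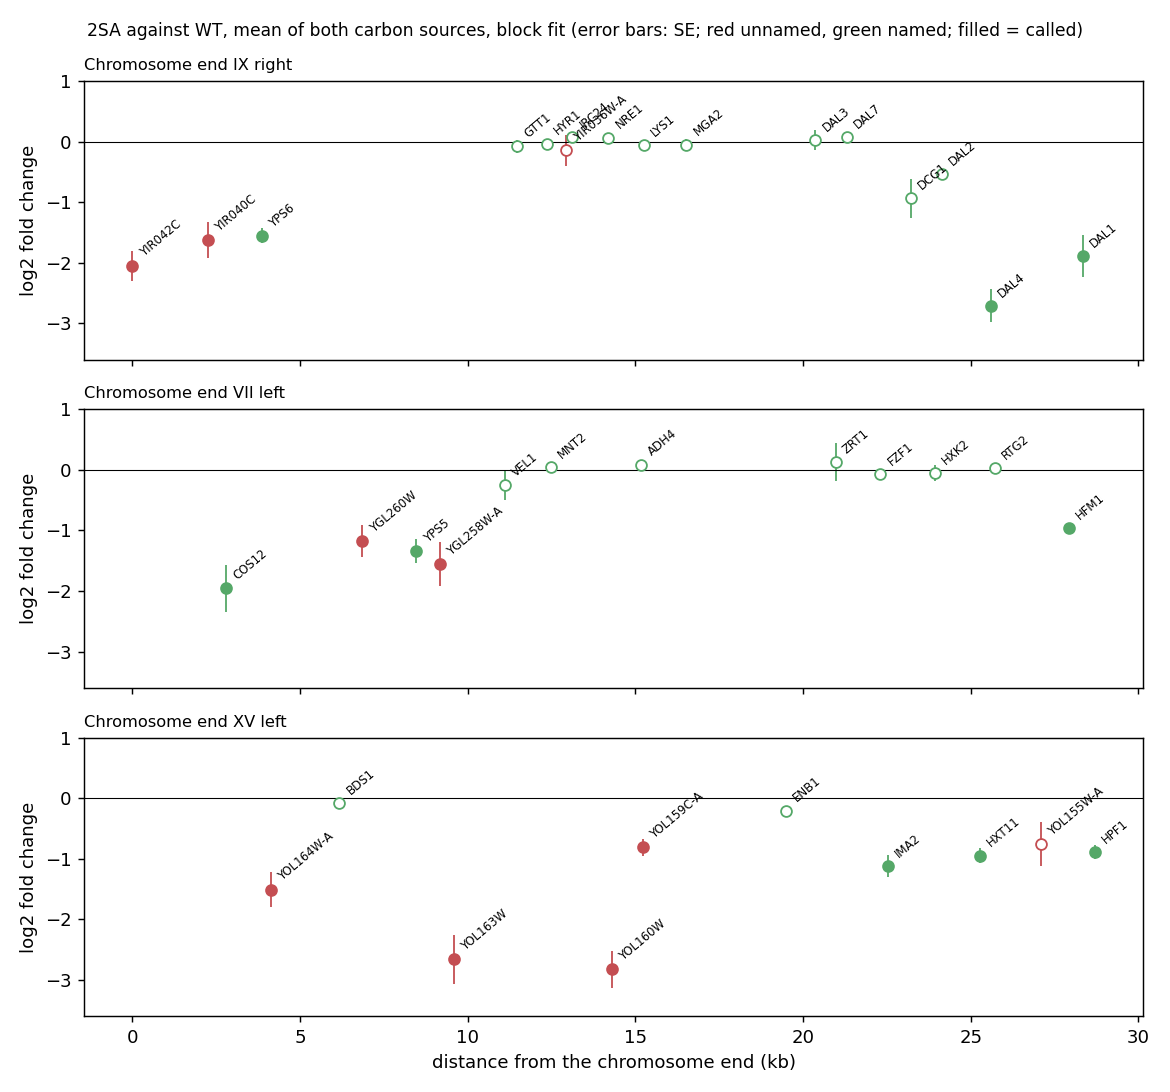
Log2 fold change of 2SA against WT (mean of both carbon sources, block fit, error bars SE) by distance in kb from the end, for the tested ORFs of the 3 chromosome ends that had at least 2 unnamed ORFs called lower. Filled points are called ORFs, and all 3 ends hold called named ORFs (green) as well as called unnamed ones (red).

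The other 2 ORFs called without a block are short. YNR075C-A (93 bases, 1938 bases from the right end of chromosome XIV) had 5.50, 4.09 and 6.60 CPM in WT and 2.28, 2.47 and 3.10 CPM in 2SA in glucose. In sucrose it had 6.79, 3.46 and 5.30 CPM in WT and 2.53, 1.46 and 2.14 CPM in 2SA. The groups did not overlap within either sugar, and the log2 fold change for the mean of both was −1.19 ± 0.22 (edgeR adjusted p = 0.0383). YAR047C, which RefSeq does not list, had 1.73, 1.56 and 1.38 CPM in WT and 0.522, 0.576 and 0.774 CPM in 2SA in glucose. In sucrose it had 2.25, 1.73 and 2.18 CPM in WT and 1.45, 0.748 and 1.26 CPM in 2SA. The groups did not overlap, but its call at −1.07 ± 0.21 (edgeR adjusted p = 0.0495) was lost whichever library was left out. Without both WT libraries numbered 1, YNR075C-A was at −1.06 ± 0.23 and YAR047C at −0.99 ± 0.24, and neither was called (edgeR adjusted p = 0.135 and 0.192).

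Leaving out 1 library also ended other calls for the mean of both sugars. YNR075C-A was not called without any 1 of the 6 2SA libraries, or without WT library 1 or 3 of either sugar. YIR042C was not called without any 1 of the 6 2SA libraries, without WT library 1 of either sugar or without WT library 3 of glucose. YOL163W was not called without any 1 of the 6 2SA libraries or without WT library 1 or 3 of glucose. YOL160W lost its call without any 2SA library of glucose, or without 2SA library 2 or 3 of sucrose. YDR541C lost its call without 2SA library 2 or 3 of glucose or 2SA library 3 of sucrose. All of these fold changes stayed below 0, with edgeR adjusted p of 0.0519 to 0.182 where the call was lost.

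The block added further ORFs, each lower in 2SA for the mean of both sugars. YEL073C, on the left arm of chromosome V with 2 near copies, had 1.99 to 15.1 CPM in the 6 WT libraries, with the WT libraries numbered 1 highest at 12.7 and 15.1, and 0.906 to 2.08 CPM in 2SA. Its log2 fold change with the block was −2.05 ± 0.32 (edgeR adjusted p = 0.00984). Without all libraries numbered 1 it was at −1.40 ± 0.21 with the block (edgeR adjusted p = 0.00378), and without the block it moved from −2.31 ± 0.49 to −1.31 ± 0.24 when both WT libraries numbered 1 were left out. On the right arm of chromosome IX, YIR040C (11 near copies, not in RefSeq) had 0.195 to 0.999 CPM in WT and 0.0824 to 0.380 CPM in 2SA. On the left arm of chromosome VII, YGL260W (13 near copies) had 0.195 to 1.77 CPM in WT and 0.146 to 0.664 in 2SA, and YGL258W-A had 0.625 to 2.00 CPM in WT and 0.137 to 0.823 in 2SA. These 3 overlapped between genotypes over all libraries, and their log2 fold changes with the block were −1.63 ± 0.29, −1.17 ± 0.26 and −1.56 ± 0.36 (edgeR adjusted p = 0.0168, 0.0344 and 0.0396). The value of YGL260W depended on the libraries numbered 1: without all of them it was −0.86 ± 0.40 with the block (edgeR adjusted p = 0.306), and without both WT libraries numbered 1 it moved from −1.23 ± 0.57 to −0.35 ± 0.50 in the fit without a block. In sucrose alone, with the block, YJL218W, an acetyltransferase ORF by RefSeq, was also called lower, with 14.2, 39.96 and 18.7 CPM in WT and 9.41, 16.8 and 12.8 CPM in 2SA. Its log2 fold change there was −0.81 ± 0.16 (edgeR adjusted p = 0.0419), and the groups overlapped.

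**Figure D4:**
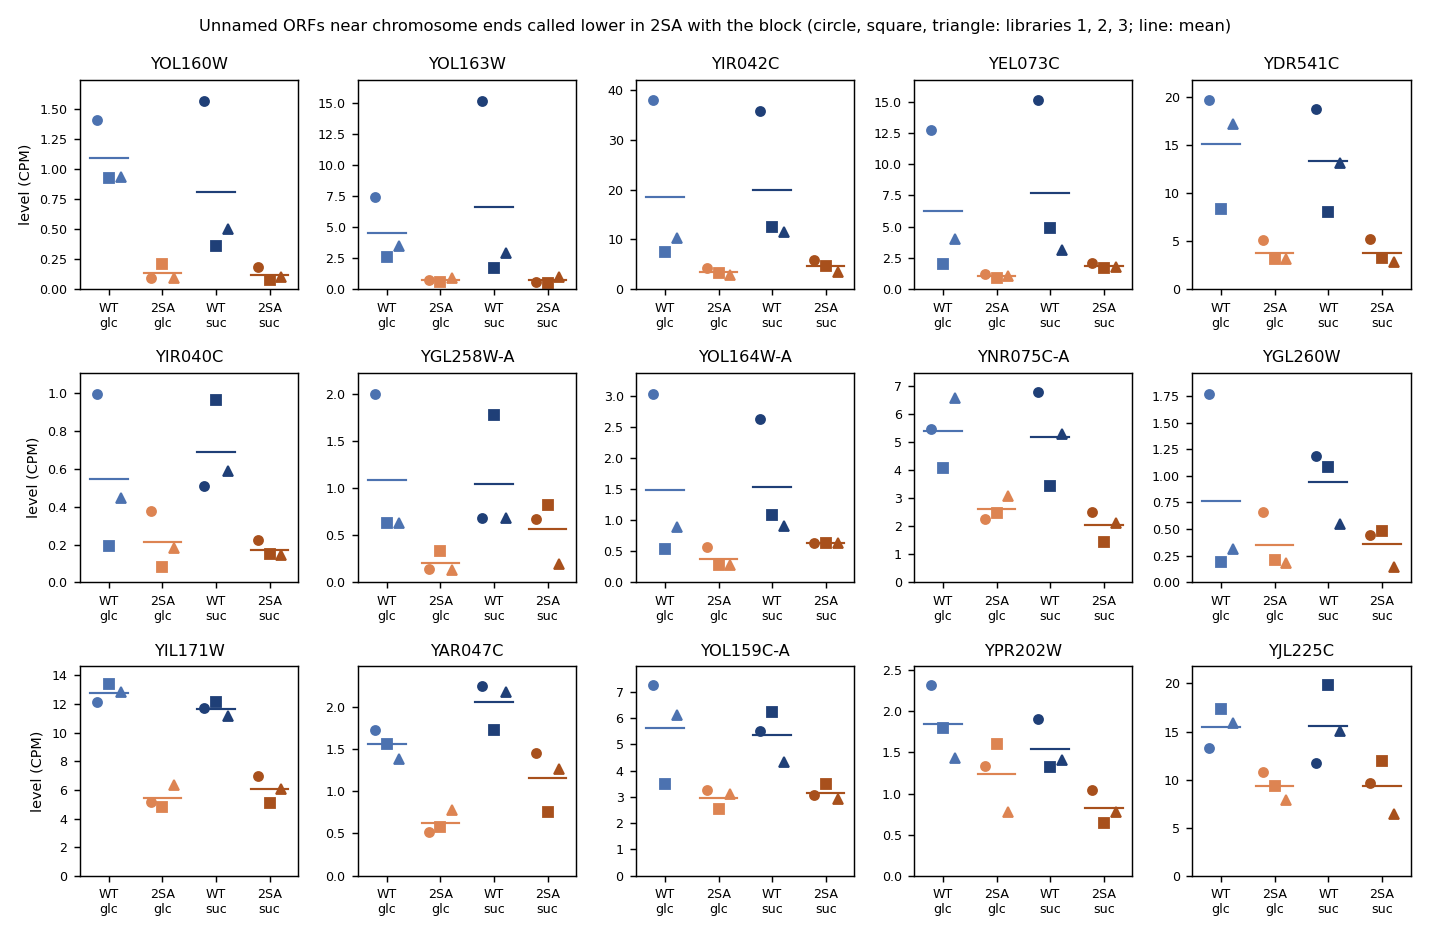
Level per library in CPM for the 15 unnamed ORFs near ends called lower in 2SA with the block for the mean of both sugars, with circles, squares and triangles for libraries 1, 2 and 3 and a line at each group mean. In 9 of the 15 the WT library numbered 1 (circle) is the highest WT library in both sugars.

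The reads of those 15 ORFs summed to 129 and 131 CPM in the WT libraries numbered 1, to 64.6 to 82.4 CPM in the other WT libraries and to 29.9 to 40.6 CPM in the 2SA libraries. The calls chose these ORFs, so the sums describe them only. For the mean of both sugars, the fold changes of the 15 were below 0 in every alternative run that gave them a value. With a minimum count of 50, 8 of the 15 had one. The alternative runs reuse most of the libraries that chose the 15, so this shared sign is no separate support. With the block, 12 of the 15 were called when all libraries numbered 1 were left out (all but YOL164W-A, YGL260W and YPR202W), 5 when those numbered 2 were left out and 6 when those numbered 3 were left out. Without the block and without both WT libraries numbered 1, 4 of the 15 were called: YIL171W, YIR042C, YOL160W and YOL163W.

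Ranks of the libraries give counts without a model. In both sugars all 3 2SA libraries lay below all 3 WT libraries in 9 of the 101 tested ORFs near ends, against 1.4% of all tested features, in 2 of 549 distant unnamed ORFs and in 40 of 251 named ORFs near ends. No ORF of the 101 lay above in both sugars, against 0.641% of all features. The 2SA library was below its same-numbered WT library in all 6 pairs in 22 of the 101, against 7.67% of all features, and above in all 6 in 2 (YEL077C and YNR065C), against 7.86%. The median log2 fold change of the 101 was −0.18 in glucose, −0.26 in sucrose and −0.21 for the mean, against 0.01, 0.00 and 0.00 over all tested features and −0.01, −0.08 and −0.05 over the distant unnamed ORFs. Taken pair by pair, the median of the 101 lay between −0.10 and −0.23 in each of the 6 pairs. More than 1.5-fold lower in the mean effect, called or not, were 25 of the 101, against 3.83% of all features, and none was more than 1.5-fold higher. Some of the 101 passed the filter on low counts only through WT, such as YOL160W with at most 0.206 CPM in 2SA. Such ORFs add to the lower side of these counts and medians and were not set apart. The values of the 101 do not stand for the 99 without a test.

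By distance, the median log2 fold change of the tested unnamed ORFs for the mean of both sugars was −0.53 within 5 kb of an end (22 ORFs), −0.23 from 5 to 10 kb (18 ORFs), −0.18 from 10 to 20 kb (35 ORFs) and −0.06 from 20 to 30 kb (26 ORFs). It was −0.06 from 30 to 50 kb, −0.04 from 50 to 100 kb and −0.05 beyond. Named ORFs had medians of −1.06, −0.76, −0.19 and −0.06 in the first 4 bins and −0.01, 0.03 and 0.01 in the rest. The share of unnamed ORFs that could be tested rose from 32.4% within 5 kb to 72.2% at 20 to 30 kb, so the bins hold different selections of ORFs. The bins use distances to the last annotated base in the table, which can fall short of the reference end. YIR040C is at 2262 bases by the table and at 6167 bases by the reference. Around the limit, YBL100W-C, YNR066C and YNR065C lay just inside at 28427, 28506 and 29841 bases, with log2 fold changes of −0.04, −0.04 and 0.11. YFL051C and YML119W lay just outside at 30058 and 30611 bases with −0.56 and 0.29 (YFL051C was among the features called lower in sucrose with the block, at −0.99 ± 0.16), and YNL324W at 31050 bases had 7 counts in all and no test.

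**Figure D5:**
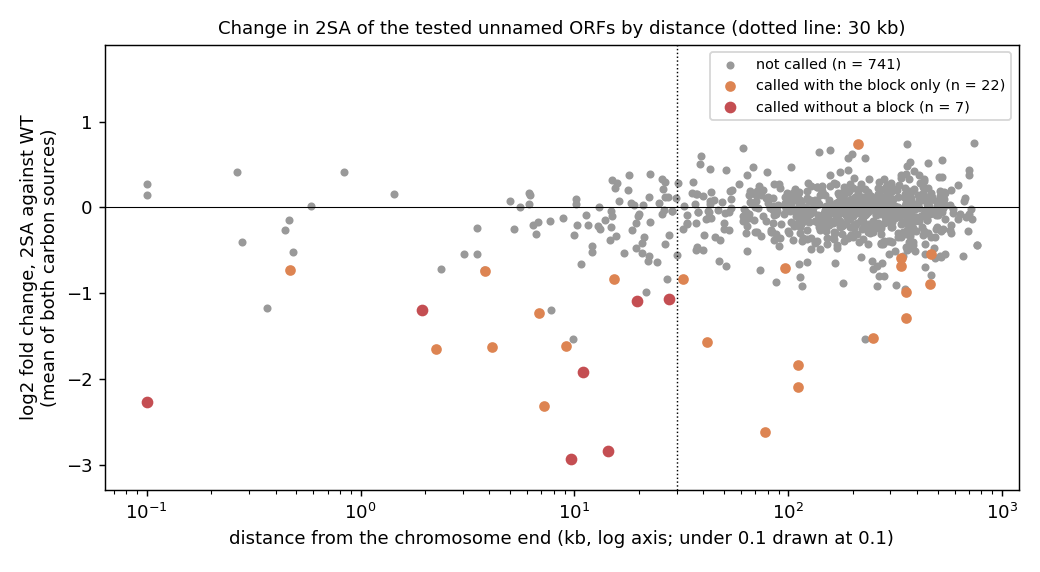
Log2 fold change of 2SA against WT (mean of both carbon sources, without the block) of each tested unnamed ORF against its distance from the chromosome end in kb on a log axis. The 7 ORFs called without a block all lie left of the dotted line at 30 kb, and the medians are −0.53 within 5 kb and −0.05 beyond 100 kb.

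The 30 ends with a tested unnamed ORF did not all look alike. The median log2 fold change of the ORFs at an end was below 0 at 24 ends and above 0 at 6. An ORF was called lower at 6 ends without the block and at 10 ends with it. At least 2 were called with the block at 3 ends: the left end of XV, the right end of IX and the left end of VII.

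Among the 14 ORFs for which RefSeq names a helicase, YJL225C and YPR202W were called lower with the block. Other ORFs that lie in or match Y′ elements are not in these counts. Of the 14, 12 were tested, 0 were called by edgeR without the block (3 lower and 0 higher at an unadjusted p under 0.05), and their median log2 fold change was −0.04. YJL225C had 13.3, 17.4 and 15.9 CPM in WT and 10.8, 9.35 and 7.88 CPM in 2SA in glucose. In sucrose it had 11.7, 19.9 and 15.04 CPM in WT and 9.67, 11.9 and 6.47 CPM in 2SA. It was at −0.74 ± 0.14 with the block (edgeR adjusted p = 0.0190), with 163 near-copy matches. How reads that match several of these were counted was not given in the sources used here. YPR202W, with 18 matches, had 1.33 to 2.32 CPM in WT and 0.636 to 1.61 CPM in 2SA, and was at −0.76 ± 0.17 with the block (adjusted p = 0.0390). With the block and without all libraries numbered 1, YPR202W was at −0.71 ± 0.23 and not called (edgeR adjusted p = 0.137). YEL077C went the other way at 0.44 with the block (edgeR adjusted p = 0.017), a change under the fold limit. Of the 8 named YRF1 helicase genes, 5 were tested and 0 were called by edgeR with or without the block, or by DESeq2, with 0 at an unadjusted p under 0.05 for the mean of both sugars without the block and 1 lower with it.

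Between the sugars, YML131W was the only ORF near an end called without a block. It had 20.4, 16.5 and 23.7 CPM in WT and 14.99, 14.1 and 37.2 CPM in 2SA in glucose. In sucrose it had 115, 87.0 and 85.8 CPM in WT and 82.6, 98.5 and 97.6 CPM in 2SA. Every sucrose library was above every glucose library, and the genotypes overlapped in both sugars. The log2 fold change of sucrose against glucose was 2.25 ± 0.34 in WT and 2.07 ± 0.34 in 2SA (edgeR adjusted p = 0.0102 and 0.0212). It was 1 of 101 called higher in each genotype, against 2.91% and 1.61% of all features, and 0 were called lower, against 0.526% and 0.279%. The call in WT was lost without WT library 2 of glucose (adjusted p = 0.0594), and that in 2SA without library 1 or 2 of either sugar (adjusted p = 0.0602 to 0.127). The median log2 fold change of the 101 was 0.23 in WT and 0.14 in 2SA, against 0.04 and 0.02 over all features, and the sucrose libraries numbered 2 differed in ribosomal protein share as given above. For the interaction, the difference of the sugar effects between genotypes, 0 of the 101 were called by edgeR (0 at an unadjusted p under 0.05) or by DESeq2, with 0.0% of all features called in either direction.

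None of the 30 genes of a list of silencing factors, which holds the Sir proteins and other chromatin factors, was called in 2SA against WT in edgeR with or without the block or in DESeq2. At an unadjusted p under 0.05, 2 of the 30 were higher and 0 lower for the mean of both sugars. That count stands without the share over all features, so it shows no change of the list. RPD3 itself had a log2 fold change of 0.00 ± 0.13, and an amino acid change would not show in its count. SIR2, SIR3 and SIR4 were at 0.03 ± 0.11, 0.12 ± 0.09 and −0.03 ± 0.12 (edgeR adjusted p = 0.998 for each).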

How the data were processed

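RNA levels were measured by sequencing in 12 libraries. The authors deposited 1 table of raw read counts per feature, whole numbers with no normalization. Reads were aligned with Bowtie 0.12.2 to sacCer3, per the submitters' processing notes. Which program counted reads, with which strand setting and treatment of multiple matches, was not given in the sources used here. Groups and replicate numbers come from the sample titles. The members and gene lists were chosen with earlier results of these data known.

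Standard names and Ty ORFs were taken from RefSeq (R64), whose locus tags matched 6047 features, 99.9% of them with the same start. Near copies were found with BLAST+ 2.17.0. Counts were fitted with edgeR 4.0.16 in R 4.3.3 (quasi-likelihood F-test, TMM scaling, filter with minimum count 10) with 1 mean per group over all 12 libraries. Benjamini-Hochberg adjustment ran over the 6085 tested features. All adjusted p come from edgeR unless DESeq2 (1.42.0) is named. Levels are TMM-scaled CPM, and errors of fold changes are standard errors. Calls need a fold change over 1.5 and an adjusted p under 0.05, the thresholds of the design text.

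Library totals were 20775911 to 25360037 counts. The lowest chi-square per degree of freedom between replicates was 87.4, so none was a library deposited more than once. Deviations of same-numbered WT and 2SA libraries correlated over features: r was 0.654, 0.610 and 0.545 for the glucose pairs 1 to 3, and for sucrose it was 0.603, 0.847 and 0.799. Numbers were therefore taken as pairs within a sugar, a pairing seen in the data and not stated by the labels. Across sugars, same-numbered libraries had r = 0.359, −0.09 and 0.479 in WT and 0.250, −0.19 and 0.335 in 2SA for numbers 1 to 3, so numbers 1 and 3 deviated together and number 2 did not, and the rule of r over 0.1 for every pair was not met. The block has 1 term for each pair. The common dispersion was 0.0719 without it and 0.0134 with it. On simulated data for the glucose comparison (6074 features without the block, 6065 with it), 38.8% of 2-fold and 100% of 4-fold changes were recovered without the block, and 93.9% and 100% with it. Each simulation gave all features the common dispersion of its own fit and held no pair effects. The difference in recovery was therefore set by those dispersions and does not show that the block recovers more in these data.

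Named are all ORFs called in any comparison without the block, up to 15 per direction called with it in a comparison of 2SA with WT, up to 10 per direction between sugars, the 8 with the highest level per kb, 3 on each side of the 30 kb limit, and RPD3, SIR2, SIR3 and SIR4. YEL077C, YFR057W, URA3 and STE3 were singled out after their values were seen.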

Additional observations from a re-analysis of the deposited data

How the results depend on the processing

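For 2SA against WT in glucose, 1 ORF near an end was called. The number was 4 with the replicate block within each sugar, 2 with an additive replicate block, 7 with the first block without all libraries numbered 1, 0 with it without those numbered 3, and 5 with DESeq2. It was 0 without both WT libraries numbered 1, without all libraries numbered 1 or 2, with only the 2 groups compared, and with members without near copies. Leaving out 1 library gave 0 to 2. The median log2 fold change of −0.18 became −0.10 without both WT libraries numbered 1, and lay between −0.26 and −0.085 with 1 library left out.

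In sucrose 0 were called. The number was 1 with the additive replicate block, 8 with the block within each sugar, 1 and 11 with that block without all libraries numbered 2 or 1, and 6 with DESeq2. Leaving out 1 library gave 0 to 0. The median of −0.26 became −0.20 with minimum count 50, −0.22 with the additive block, −0.23 with the block within each sugar, −0.19 and −0.21 with that block without number 2 or 3, −0.20 without number 2 and no block, and −0.20 for ORFs within 50 kb. Leaving out 1 library gave −0.35 to −0.25.

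For the mean of both sugars 7 were called. The number was 4 with minimum count 50, 15 with the block, 16 with the block without number 1 (15 lower, 1 higher), 4 without both WT libraries numbered 1, 0 without all libraries numbered 1 or 2, and 12 with DESeq2. With 1 library left out it was 1 to 8. The median of −0.21 became −0.30 with no filter, −0.17 with minimum count 50, −0.19 with the block and with the block without number 2, −0.27 with the block without number 3, −0.23 for ORFs within 20 kb and −0.16 within 50 kb. Leaving out 1 library gave −0.32 to −0.18.

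Between sugars, where numbers 1 and 3 but not 2 deviated together, 1 was called in WT and 1 in 2SA. The numbers were 5 and 3 with the additive replicate block, 6 and 2 with DESeq2, and 2 and 2 within 50 kb. In 2SA it was 0 with only the 2 groups compared. Leaving out 1 library gave 0 to 3 in WT and 0 to 1 in 2SA. No result changed sign under any alternative run. Except for the fits with and without the block over all libraries, the numbers called stand without the share over all features. They show only how the count of these ORFs shifted. The cause of these shifts was not tested. Settings that leave out all libraries of one number, or both WT libraries numbered 1, were added after seeing the data. Few reads limit 99 of the 200 ORFs, which were not tested.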
